A study of Mus musculus with 2 samples.

Results

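The genes described here are 10 that carry fatty acids from the blood into heart muscle or bind them there: Lpl, Gpihbp1, Vldlr, Cd36, Slc27a1, Slc27a4, Fabp3, Fabp4, Fabp5 and Acsl1. They were chosen by name, and all 10 were found among the 43346 Ensembl genes of the gene tables, with 37 of the 103639 transcripts of the transcript tables. The RNA came from the heart of 1 mouse, an adult C57BL/6J female aged 10 weeks, and poly(A) RNA was sequenced in 2 libraries labelled as technical replicates of a single biological replicate. Replicate 2 is the later library, added after replicate 1 had been published, and the labels name the same lipid tissue extraction kit for both. No treatment or mutation is given, so there are no conditions to compare, and every spread below is between libraries of 1 animal.

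As background, circulating triglyceride reaches heart muscle in lipoproteins. Lipoprotein lipase (Lpl), made by the muscle cells, is carried by Gpihbp1 to the inner face of the capillary, where it splits triglyceride, and Vldlr, a receptor of heart, muscle and fat, binds triglyceride-rich particles. The freed fatty acids cross endothelium and muscle membrane with the help of Cd36 and of the transport proteins Slc27a1 and Slc27a4, are held in the cell by fatty acid binding proteins (Fabp3 in muscle, Fabp4 and Fabp5 in capillary endothelium and fat), and are joined to coenzyme A by Acsl1, which commits them to oxidation or storage.

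Replicate 2 held 19685821 counts and replicate 1 held 22775991. Mitochondrial genes took 25.3% of the counts in replicate 2 and 61.7% in replicate 1, and 12654724 counts in replicate 2 against 5028154 in replicate 1 came from nuclear genes other than copies of mitochondrial ones. Levels are given as TPM, an abundance corrected for transcript length and scaled to a fixed sum per library, and as nuclear TPM, the same value rescaled to those nuclear genes alone. Heart muscle markers were present in both libraries, with Myl2 at 10107.92 TPM in replicate 2 and 545.95 TPM in replicate 1 and all 8 markers of the list above 1 TPM in both. Among fat cell markers, Adipoq drew 177 counts in replicate 2 and 45 in replicate 1. Cidec drew 165 in replicate 2 and 0 in replicate 1. Endothelial, macrophage, fibroblast and mural markers were detected too, so the tissue was a mixture of cells. In such bulk RNA, fewer cells of a type and less RNA per cell cannot be told apart.

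All 10 genes were transcribed in this heart, and 7 of them had at least 1 TPM in both libraries. Together they reached 5753.1 TPM in replicate 2 and 1517.5 TPM in replicate 1 (mean 3635.3 ± 2995.0 TPM, SD, n = 2 libraries), 3.79-fold more in replicate 2. Among nuclear genes alone the order turned round, with 14715.2 nuclear TPM in replicate 2 and 21022.4 in replicate 1. They took 1.61% of nuclear counts in replicate 2 and 3.42% in replicate 1. The make-up of the group differed as much as its size. Lpl and Cd36 carried 31.7% of its summed TPM in replicate 2 and 83.4% in replicate 1, whereas Fabp3, Fabp4 and Fabp5 carried 61.9% in replicate 2 and 11.1% in replicate 1.

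**Figure D1:**
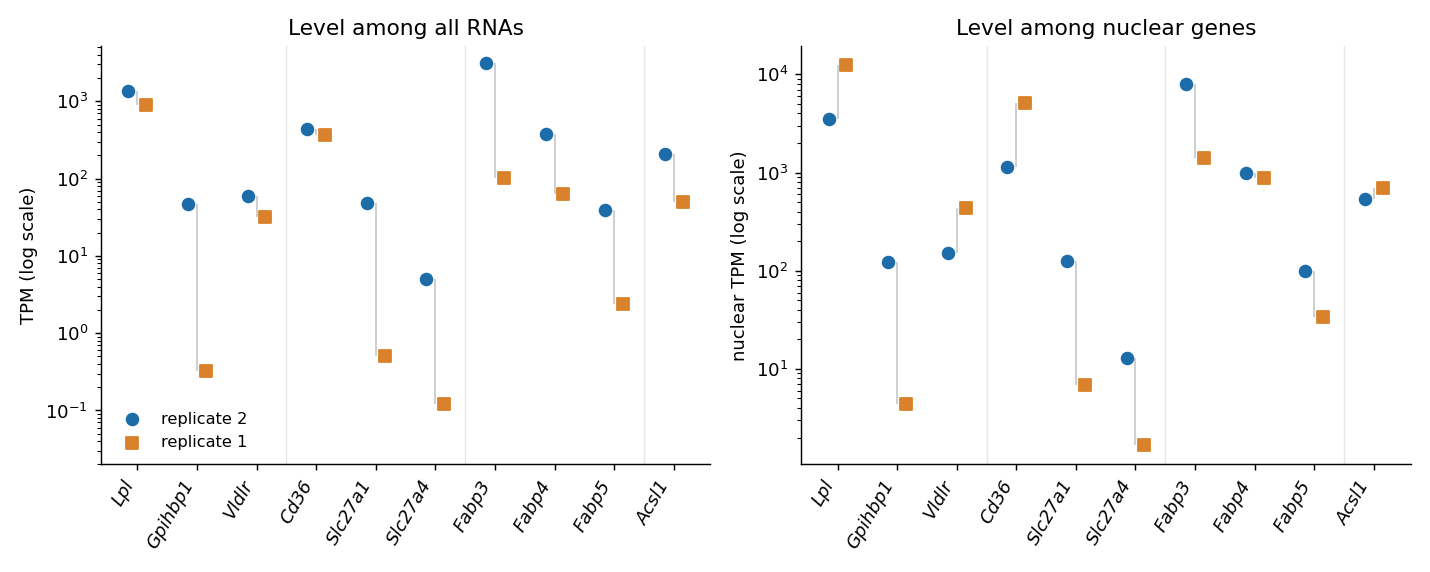
Level of the 10 genes in replicate 2 (blue circles) and replicate 1 (orange squares), in TPM on the left and nuclear TPM on the right, both on log axes; grey lines join the values of 1 gene, and thin vertical lines set off vessel-side genes, membrane proteins, binding proteins and the acyl-CoA synthetase. All 10 TPM values lie higher in replicate 2, while nuclear TPM lies lower in replicate 2 for Lpl, Vldlr, Cd36 and Acsl1.

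The libraries were compared by edgeR's exact binomial test of counts with TMM-scaled library sizes over 13182 genes, and a call needed both a 2-fold difference and p under 0.05 after Benjamini-Hochberg adjustment over all of them. Intervals are 95% exact binomial intervals of the scaled ratio. Test and intervals cover counting error only, since sequenced reads are not independent molecules, and they compare 2 libraries, not conditions. By this rule 5 of the 10 genes were higher in replicate 2 (Gpihbp1, Slc27a1, Slc27a4, Fabp3, Fabp5), 3 were lower (Lpl, Vldlr, Cd36) and 2 were not called (Fabp4, Acsl1). Of all genes tested, 40.5% were called higher in replicate 2 and 24.0% lower, so these counts lie near the background. The median log2 ratio was 0.98 over the 10 genes and 0.37 over all genes.

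On the vessel side, Lpl was the most abundant of the 10 in replicate 1 and second in replicate 2. The gene (ENSMUSG00000015568.11, chr8:68880491-68907448 of mm10, plus strand) drew 104691 counts in replicate 2, fewer than the 114633 in replicate 1. Its level was 1381.69 TPM in replicate 2 and 900.05 TPM in replicate 1 (1140.9 ± 340.6, SD, n = 2), and it ranked 30th among nuclear genes in replicate 2 and 3rd in replicate 1. TPM was thus higher in replicate 2, while the TMM-scaled comparison called Lpl 2.73-fold lower in replicate 2 (interval 2.70 to 2.75). The sign of that call depends on scaling: by raw library totals the log2 ratio was 0.08. Nearly all of the gene's abundance, 99.6% in replicate 2 and 99.98% in replicate 1, was in the protein-coding transcript Lpl-201.

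Gpihbp1 (ENSMUSG00000022579.6, chr15:75596628-75599481, plus strand), the capillary protein that anchors the lipase, went the other way. It had 656 counts and 47.56 TPM in replicate 2, against 7 counts and 0.32 TPM in replicate 1. The ratio was 37.6-fold higher in replicate 2, with an interval of 18.2 to 94.0 that is wide because replicate 1 held so few counts. Lpl exceeded its anchor 29.0-fold in replicate 2 and 2143-fold in replicate 1, so the 2 libraries place the ratio of lipase to anchor RNA very differently (mean log2 ratio 7.96 ± 4.39). In replicate 2, 73.25% of Gpihbp1 abundance was in Gpihbp1-201, which had no count in replicate 1. There Gpihbp1-204 led with 57.3%, but on 7 counts in all that share cannot be read as a switch.

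Vldlr (ENSMUSG00000024924.10, chr19:27216484-27254231, plus strand) kept its 6th place among the 10 in both libraries. It had 8228 counts and 58.90 TPM in replicate 2, and 7914 counts and 31.70 TPM in replicate 1. TMM scaling made it 2.40-fold lower in replicate 2 (interval 2.32 to 2.47), whereas raw totals gave a log2 ratio of 0.27. The excess of Lpl over Vldlr was 23.4-fold in replicate 2 and 28.3-fold in replicate 1. This log2 ratio of 4.69 ± 0.19 moved little between libraries. The long transcript Vldlr-207 led in both, with 87.95% in replicate 2 and 98.15% in replicate 1. The shorter coding transcript Vldlr-208 had 191.05 counts in replicate 2 (posterior SD 28.8, from the deposited table) and none in replicate 1.

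Cd36 (ENSMUSG00000002944.11, chr5:17781690-17888801, minus strand), the scavenger receptor that is the chief fatty acid transporter of heart muscle and endothelium, had the TPM values closest to each other, as a ratio, of the 10. It reached 443.07 TPM in replicate 2 and 366.18 TPM in replicate 1 (404.6 ± 54.4, SD, n = 2), from 28133 counts in replicate 2 and 39218 in replicate 1. Among nuclear genes it stood at 1133.3 nuclear TPM in replicate 2 and 5072.8 in replicate 1. Its TMM-scaled counts were 3.47-fold lower in replicate 2 (interval 3.42 to 3.53). Cd36 RNA was less abundant than Lpl RNA in both libraries, 3.12-fold in replicate 2 and 2.46-fold in replicate 1. Their log2 ratio of -1.47 ± 0.24 likewise moved little between libraries. Its mean depends on the GC trend described below. With replicate 1 brought to the GC profile of replicate 2 the mean was -1.86, a shift beyond that SD.

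Cd36 was also the gene whose abundance was most widely spread over transcripts. Its 4 coding transcripts differ in where they start and also in where they end. On this minus strand they end at 17781690 (Cd36-204), 17782016 (Cd36-201), 17782367 (Cd36-203) and 17782369 (Cd36-202). Their shares are thus not those of starts alone. Of these 4, Cd36-203 has the start farthest upstream by release M21 coordinates (transcript models can differ in length from those of M4). It carried 29.96% of the abundance in replicate 2 and 40.82% in replicate 1. Cd36-202 and Cd36-204, whose starts lie close together farther in, jointly carried 62.3% in replicate 2 and 50.6% in replicate 1. The most proximal, Cd36-201, carried 7.77% in replicate 2 and 8.59% in replicate 1. The transcript with the largest share was therefore Cd36-204 in replicate 2 (39.51%) and Cd36-203 in replicate 1. The deposited posterior SDs of these counts were between 0.638% and 1.38% of the gene's counts, less than the shift of Cd36-203. The 4 transcripts had GC contents within 37.7% to 38.7%.

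The 2 fatty acid transport proteins of the list were well counted in replicate 2 and barely counted in replicate 1. Slc27a1 (ENSMUSG00000031808.6, chr8:71568882-71587302, plus strand), the transport protein of muscle and fat, had 2475 counts and 49.10 TPM in replicate 2, against 42 counts and 0.50 TPM in replicate 1. That is 23.7-fold higher in replicate 2 after TMM scaling (interval 17.5 to 32.9). Gm11032 and the miRNA genes Gm25195, Gm25197, Gm27754 and Gm28017, short loci that match parts of Slc27a1 transcripts, had no count in either library. Slc27a1 made up 88.4% of the summed TPM of the 6 Slc27a genes in replicate 2 and 68.5% in replicate 1, the largest share in each.

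Slc27a4 (ENSMUSG00000059316.2, chr2:29802634-29817522, plus strand), a broadly expressed relative, was the lowest of the 10 in both libraries. It had 363 counts and 5.07 TPM in replicate 2, against 2 counts and 0.12 TPM in replicate 1. With so few counts the ratio of 72.9-fold higher in replicate 2 has an interval of 20.03 to 604. The replicate 1 TPM also rests on which transcript took the counts. Both went to Slc27a4-202, a 722-base transcript without a coding frame that carried 4.81% in replicate 2, so the effective length used was 535 bases in replicate 1 and 3705 in replicate 2. At the replicate 2 length the same counts would give 0.0173 TPM. Per length, Slc27a1 counts exceeded Slc27a4 counts 4.31-fold in replicate 1 (95% exact interval 1.12 to 36.8), and in replicate 2 the TPM ratio was 9.52-fold. At the replicate 2 length of Slc27a4 the same counts would give 29.8-fold in replicate 1 (interval 7.76 to 254), so the 2 libraries do not settle how far Slc27a1 exceeds Slc27a4.

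Among the binding proteins, the coding sequences of Fabp3, Fabp4 and Fabp5 show a common family and much divergence. Over aligned bases Fabp3 and Fabp4 were 63.9% identical, Fabp4 and Fabp5 60.9% and Fabp3 and Fabp5 56.0%, and the longest run of identical bases in any pair was 14. The first 90 coding bases of each, from GENCODE M21 transcripts, are shown so that this divergence can be seen, with capitals marking bases that all 3 share in the alignment.
Fabp3: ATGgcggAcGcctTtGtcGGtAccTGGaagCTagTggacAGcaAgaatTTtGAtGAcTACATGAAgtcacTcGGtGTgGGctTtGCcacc
Fabp4: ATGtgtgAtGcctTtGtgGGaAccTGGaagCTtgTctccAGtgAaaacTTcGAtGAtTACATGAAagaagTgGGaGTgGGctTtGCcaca
Fabp5: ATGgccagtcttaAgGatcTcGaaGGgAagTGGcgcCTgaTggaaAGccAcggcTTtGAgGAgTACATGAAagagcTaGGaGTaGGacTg

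Fabp3 (ENSMUSG00000028773.8, chr4:130308595-130315463, plus strand), the binding protein of heart muscle, differed more between libraries than the other 4 genes among the 5 of highest mean TPM. It had 38487 counts and 3136.15 TPM in replicate 2, where it was the most abundant of the 10 and 10th among all nuclear genes. In replicate 1 it had 2119 counts and 102.69 TPM, below Lpl and Cd36 and 81st among nuclear genes. It was called 7.29-fold higher in replicate 2 (interval 6.98 to 7.62). Cd36 over Fabp3 was the only one of 18 gene pairs in which the higher gene changed: Fabp3 exceeded Cd36 7.08-fold in replicate 2, and Cd36 exceeded Fabp3 3.56-fold in replicate 1. That change depends on the GC trend described below. When replicate 1 was brought to the GC profile of replicate 2, all 18 pairs kept the same higher gene. The mean log2 ratio of Cd36 over Fabp3 was then -2.53. The heart muscle markers moved the same way after TMM scaling, 7 of 8 called higher in replicate 2, beside 40.5% of all genes. Their summed level was 105789.8 nuclear TPM in replicate 2 against 16452.5 in replicate 1. Their median GC content was 54.9%. With the GC trend removed, 5 of 8 were called higher, beside 10.2% of all genes, at a median log2 ratio of 1.32. Fabp3 was then not called, at 0.78. The part of muscle RNA in the Fabp3 difference was not tested.

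Fabp3 has a near copy that was assigned few counts. Fabp3-ps1, a processed pseudogene, matches the 402 coding bases with 3 differences, A40T, C297T and G334A, counted from 1 at the A of the start codon with the Fabp3 base first. It held 207.6 counts in replicate 2 and 23.9 in replicate 1, and the posterior SD of the Fabp3 count was 9.38 in replicate 2 and 5.72 in replicate 1. These values show how reads were assigned, and how many could have come from either gene was not counted, so the Fabp3 values are uncertain to that extent. Zcchc17, which overlaps Fabp3 exons on the other strand, drew 336 counts in replicate 2 and 86 in replicate 1. Without knowledge of strand use in counting the reads of the overlap cannot be separated.

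Fabp4 (ENSMUSG00000062515.3, chr3:10204088-10208576, minus strand), the binding protein of capillary endothelium and fat, stayed in 4th place among the 10. It had 5832 counts and 383.43 TPM in replicate 2, and 1980 counts and 63.23 TPM in replicate 1. Its nuclear TPM was the steadiest of the group, 980.7 in replicate 2 and 875.9 in replicate 1 (928.3 ± 74.1, SD, n = 2), and it was not called, with a log2 ratio of 0.24 (interval 0.17 to 0.32). Under upper-quartile scaling that ratio was -0.18. Fabp3 exceeded Fabp4 8.18-fold in replicate 2 and only 1.62-fold in replicate 1.

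Fabp5 (ENSMUSG00000027533.10, chr3:10012548-10016607, plus strand), the epidermal binding protein that endothelium also makes, was far lower. It had 647 counts and 39.14 TPM in replicate 2, against 79 counts and 2.42 TPM in replicate 1, and was called 3.29-fold higher in replicate 2 (interval 2.60 to 4.21). Fabp4 exceeded Fabp5 9.77-fold in replicate 2 and 25.1-fold in replicate 1. Its processed copies Gm6166 and Gm14328, 98.3% and 97.3% identical, held no more than 1 count in either library. Fabp4 and Fabp5 lie in 1 cluster on chromosome 3, where the nearer end of Fabp4 lies 187481 bases past the end of Fabp5, and the family genes around them were all but silent. Pmp2 had no count in either library, Fabp9 had 1 in replicate 2 and 4 in replicate 1, and Fabp12 had 1 in replicate 2 and none in replicate 1.

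Transcripts that keep intron sequence took a smaller share of Fabp4 and Fabp5 in replicate 2. Fabp4-202, such a transcript, is 4231 bases long, the whole of its span from 10204328 to 10208558, so no intron is removed. It carried 2.37% of Fabp4 abundance in replicate 2 and 7.69% in replicate 1. It drew 709.4 counts in replicate 2 and 637.4 in replicate 1, with posterior SDs near 3.6. These are part of the Fabp4 counts tested, 5832 in replicate 2 and 1980 in replicate 1. Fabp5-202 carried 2.5% of Fabp5 in replicate 2 and 9.24% in replicate 1, on 57.6 counts in replicate 2 and 22.1 in replicate 1. The spliced coding forms Fabp4-201 and Fabp5-201 made up the remainder.

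Acsl1 (ENSMUSG00000018796.8, chr8:46471037-46536051, plus strand), the long-chain acyl-CoA synthetase of heart and fat, held the 5th place among the 10 in both libraries. It had 14341 counts and 209.01 TPM in replicate 2, and 6017 counts and 50.28 TPM in replicate 1. After TMM scaling it was the gene closest to no difference, with a log2 ratio of -0.06 (interval -0.11 to -0.02, not called), although by raw totals the ratio was 1.46. Acsl1 made up 92.8% of the summed TPM of the 5 Acsl genes in replicate 2 and 83.3% in replicate 1. It exceeded Acsl5 35.0-fold in each library, whereas it exceeded Acsl3 56.8-fold in replicate 2 and 11.6-fold in replicate 1.

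The libraries divided Acsl1 unequally between its 2 leading transcripts, which differ in start and in end. Acsl1-201 ends at 46536051 and is 3893 bases long, and Acsl1-203 ends at 46535581 and is 3421 bases long. Their shares are thus not those of starts alone. Acsl1-201 carried 74.88% of the abundance in replicate 2 and 98.36% in replicate 1. Acsl1-203, which begins with another first exon inside the gene, carried 23.71% in replicate 2 and 1.26% in replicate 1, from 3098.7 counts (posterior SD 120.2) in replicate 2 and 66.6 counts (posterior SD 5.84) in replicate 1. Whole-transcript GC content was close, 49.0% for Acsl1-201 and 50.1% for Acsl1-203. The first exon of Acsl1-203 (196 bases) had 60.2% GC and that of Acsl1-201 (194 bases) 72.2%. Acsl1-203, whose share was larger in replicate 2 than in replicate 1, thus had the first exon poorer in GC but the whole transcript slightly richer in GC. Whether GC content had a part in the shift was not tested.

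The 250 bases upstream of each start are shown because the 2 windows differ in make-up. They are from the RefSeq promoter table of build GRCm38.p6, plus strand, at chr8:46470787-46471036 for Acsl1-201 and chr8:46490716-46490965 for Acsl1-203. Capitals mark GGGCGG, searched on both strands, the core of the GC box that Sp1-type factors bind.
Upstream of Acsl1-201: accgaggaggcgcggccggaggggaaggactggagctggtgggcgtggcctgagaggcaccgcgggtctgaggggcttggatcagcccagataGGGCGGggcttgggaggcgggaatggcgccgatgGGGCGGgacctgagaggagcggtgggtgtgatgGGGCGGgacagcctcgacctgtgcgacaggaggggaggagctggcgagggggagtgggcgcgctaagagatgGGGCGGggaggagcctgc
Upstream of Acsl1-203: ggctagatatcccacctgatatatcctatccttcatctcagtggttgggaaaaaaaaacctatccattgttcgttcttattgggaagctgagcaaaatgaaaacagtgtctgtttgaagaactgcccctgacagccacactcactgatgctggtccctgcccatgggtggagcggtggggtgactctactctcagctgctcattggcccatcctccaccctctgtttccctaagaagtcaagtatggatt
The window of the first start was 72.0% GC, above 93.1% of the 32851 promoters in the table, and held GGGCGG 4 times. The window of the second start was 48.4% GC, above 35.1% of promoters, and held none. GGGCGG occurred in 32.7% of all windows of this length. TATAAA and AGGTCA, which occurred in 12.4% and 14.0% of all windows, were in neither of the 2, which says only that those letters are absent from these bases.

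**Figure D2:**
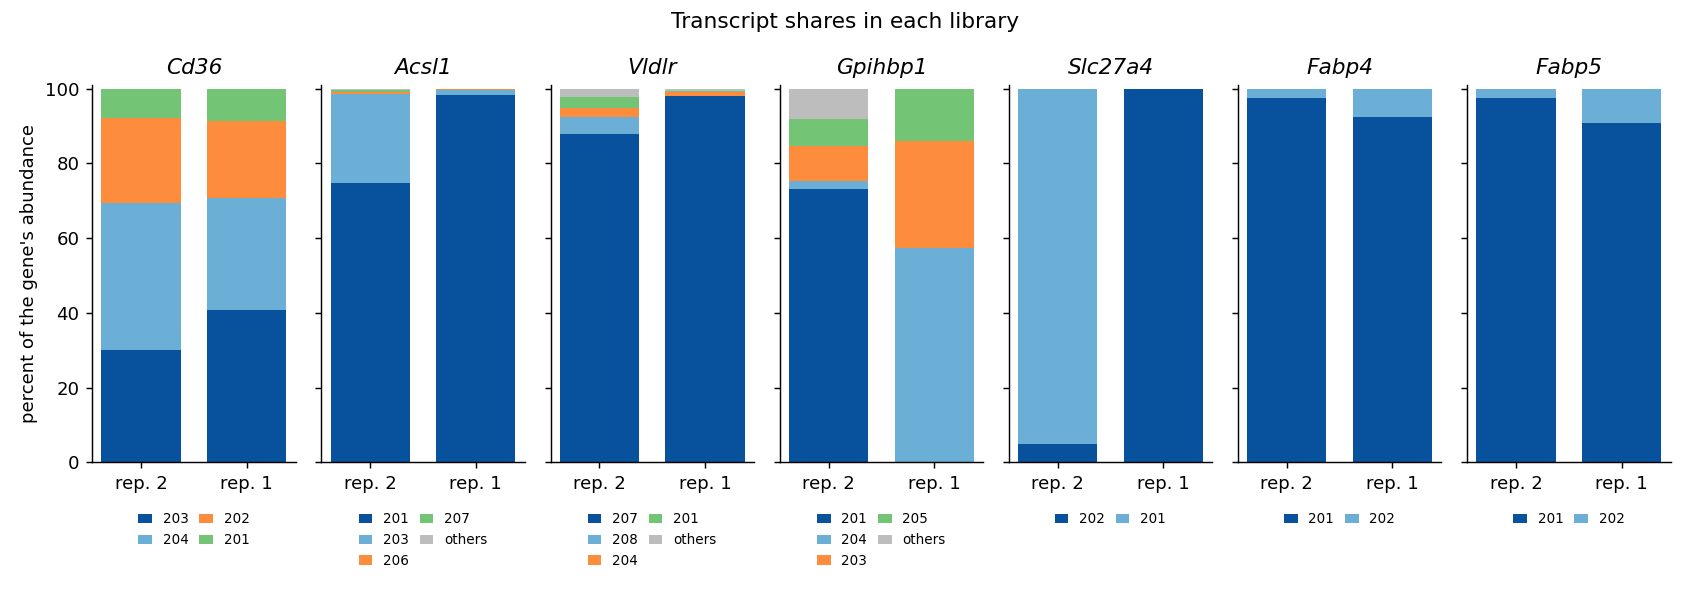
Share of each gene's abundance carried by its transcripts (percent, deposited tables) in replicate 2 (left bar) and replicate 1 (right bar), for the 7 genes where more than 1 transcript took a visible share; numbers are transcript suffixes. Acsl1-203 takes 23.71% in replicate 2 and 1.26% in replicate 1, and the replicate 1 bars of Gpihbp1 and Slc27a4 rest on 7 and 2 counts.

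The order of the 10 levels was compared between neighbours ranked by mean TPM, as a log2 ratio within each library of TPM with 0.1 added. For 4 of the 9 neighbouring pairs the mean ratio exceeded its SD over the 2 libraries. These were Lpl over Cd36 (1.47 ± 0.24), Fabp4 over Acsl1 (0.60 ± 0.39), Acsl1 over Vldlr (1.24 ± 0.82) and Fabp5 over Slc27a4 (3.22 ± 0.42). Fabp3 and Lpl, Cd36 and Fabp4, Vldlr and Slc27a1, Slc27a1 and Gpihbp1, and Gpihbp1 and Fabp5 did not differ beyond that spread. Over the 18 pairs chosen for their roles, 17 had the same higher gene in both libraries. The widest gap among the 18 was that between the lipases: endothelial lipase (Lipg) drew 1 count in replicate 2 and 0 in replicate 1. Per length Lpl exceeded it 96161-fold in replicate 2 (95% exact interval 17259 to 3798187) and at least 35023-fold in replicate 1, taking a floor of 3 counts for Lipg (the 95% exact lower limit there is 28482).

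**Figure D3:**
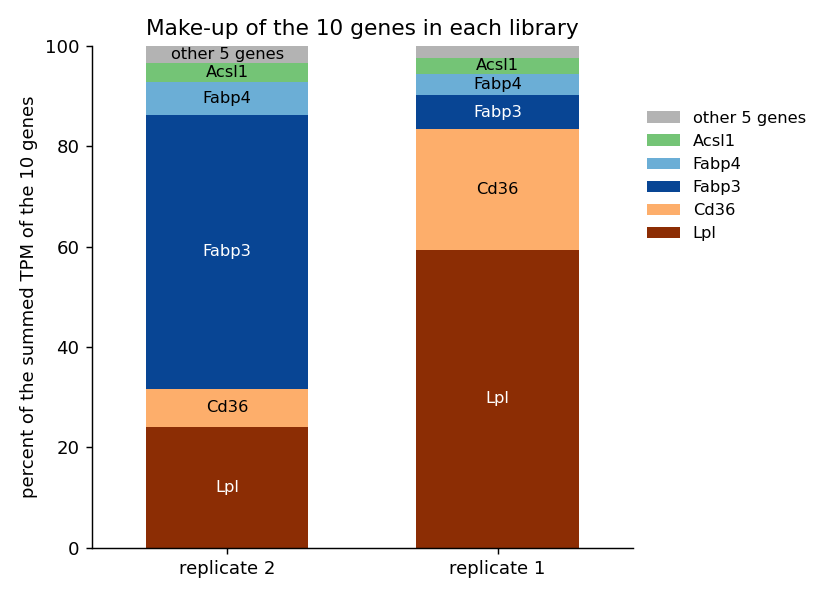
Share of the summed TPM of the 10 genes (percent) taken by each gene in replicate 2 (left) and replicate 1 (right); the grey segment joins Gpihbp1, Vldlr, Fabp5, Slc27a1 and Slc27a4. Lpl and Cd36 together take 31.7% in replicate 2 and 83.4% in replicate 1.

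The differences between libraries followed the GC content of the genes. The 3 genes called lower in replicate 2 had GC contents of 38.5% to 44.4%, and Gpihbp1, Slc27a1, Slc27a4 and Fabp3 lay between 53.9% and 59.1%. Fabp5, also called higher, was an exception at 45.7%. The 2 genes not called, Fabp4 and Acsl1, had 40.4% and 49.3%. Across the 10 genes the log2 ratio correlated with GC content at a Spearman rho of 0.87 and a Pearson r of 0.89 (n = 10). Across all 13155 tested genes with a GC value these were 0.90 and 0.85, so the 10 genes share this relation with the rest of the transcriptome. Genes of 1 pair of libraries are not independent replicates, and these correlations are descriptions.

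**Figure D4:**
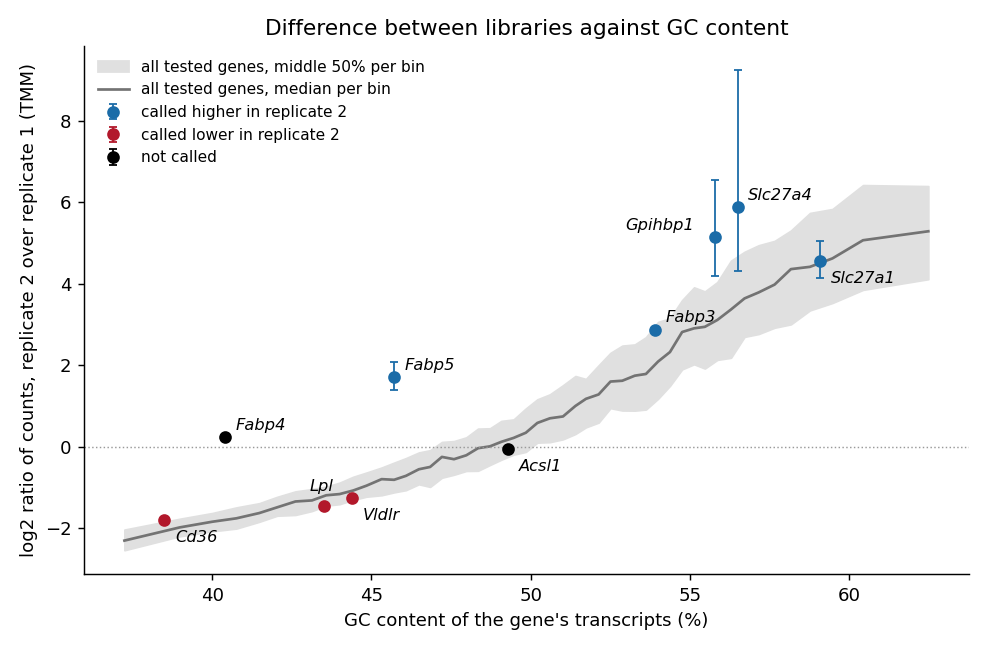
Log2 ratio of TMM-scaled counts, replicate 2 over replicate 1, against GC content (percent) for the 10 genes, with 95% exact intervals, over the median (grey line) and middle 50% (grey band) of all tested genes in 50 bins of GC content. Cd36, Vldlr, Acsl1, Fabp3 and Slc27a1 lie within the band, Lpl at its lower edge, and Fabp4, Fabp5, Gpihbp1 and Slc27a4 above it.

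When the median ratio at each GC content was subtracted, 4 of the 10 genes were called higher in replicate 2 and none lower, beside 10.2% of all genes called higher and 10.7% lower. Fabp5 (2.52), Slc27a4 (2.23), Fabp4 (2.08) and Gpihbp1 (2.03) passed on the log2 scale. Lpl (-0.26), Vldlr (-0.19), Acsl1 (-0.18), Slc27a1 (-0.07), Cd36 (0.18) and Fabp3 (0.78) did not. Cd36, 3.47-fold lower by TMM scaling alone, and Slc27a1, 23.7-fold higher, thus lay close to the median of genes of like GC content. Fabp4 was not called before this step and was called after it.

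Transcript length moved with what remained. Over all tested genes the GC-adjusted log2 ratio had a median of 0.41 at effective lengths under 1000 bases and -0.14 over 4000 bases, and 4 of the 10 genes (Gpihbp1, Fabp3, Fabp4, Fabp5) had effective lengths under 1000 bases in replicate 2. With the length trend removed as well, a step chosen after seeing the data, the same 4 genes stayed called at 2.34 for Fabp5, 2.35 for Slc27a4, 1.90 for Fabp4 and 1.77 for Gpihbp1, and Fabp3 came to 0.11. Of all genes, 8.68% were then called higher and 11.3% lower. Slc27a4 rests on 2 counts and Gpihbp1 on 7 in replicate 1, so Fabp4 and Fabp5 are the best counted of the 4.

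**Figure D5:**
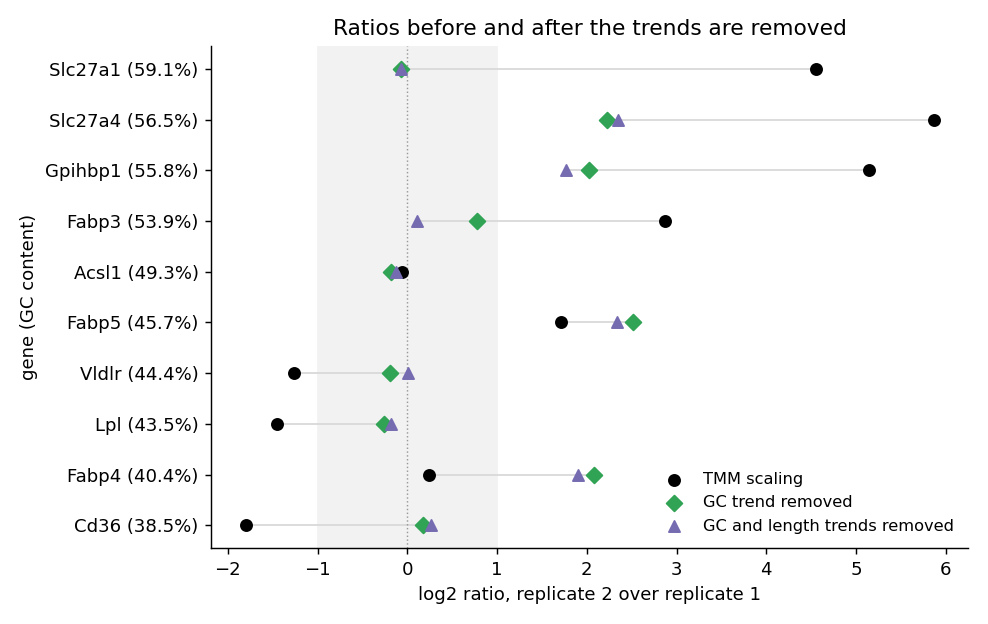
Log2 ratio, replicate 2 over replicate 1, of the 10 genes ordered by GC content, after TMM scaling (black circles), with the GC trend of all genes removed (green diamonds) and with GC and length trends removed (purple triangles); the grey band spans changes under 2-fold. Fabp5, Slc27a4, Fabp4 and Gpihbp1 stay to the right of the band after both steps.

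Fabp4, Fabp5 and Gpihbp1 are made in capillary endothelium or fat, and markers of both cell types were read beside them. Of 10 endothelial markers, 7 were called higher in replicate 2 and 1 lower after TMM scaling, with a summed level of 1435.7 nuclear TPM in replicate 2 and 593.3 in replicate 1. After removal of the GC trend 2 were called higher and none lower, at a median log2 ratio of 0.34. Of all genes, 40.5% were called higher and 24.0% lower after TMM scaling, and 10.2% and 10.7% after removal of the GC trend. Of 9 tested fat cell markers, 8 were called higher after TMM scaling and 3 after removal of the GC trend, at a median of 1.27, with summed levels of 239.6 nuclear TPM in replicate 2 and 50.4 in replicate 1. No fat cell marker was called lower at either step. The median GC content was 51.2% in the endothelial list and 56.0% in the fat cell list. The fat cell markers highest in TPM in replicate 2 were Cfd, Cidea, Lipe and Ucp1. Their levels were 24.43, 18.76, 16.55 and 13.04 TPM there, against 0.08, 0.60, 0.05 and 1.52 TPM in replicate 1. Lep, the fat cell hormone, had 3 counts in each library. Whether fat or endothelium had a part in the Fabp4, Fabp5 and Gpihbp1 differences was not tested.

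Other genes of the pathway, 48 in 6 lists, were read for comparison. Of 34 with enough counts to test, 15 were called higher in replicate 2, 6 lower and 13 not. Of all genes, 40.5% were called higher and 24.0% lower, so these counts lie near the background. The median log2 ratio was 0.75 over the 34 and 0.37 over all genes. With the GC trend removed 4 were called higher and 5 lower, beside 10.2% and 10.7% of all genes, again near the background.

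Of 8 tested partners that act on the lipase, 5 were called higher in replicate 2 and 1 lower, beside 40.5% and 24.0% of all genes. With the GC trend removed 1 was called higher (Hspg2) and none lower, beside 10.2% and 10.7% of all genes. The median log2 ratio of the partners was then 0.43 against 3.19 before. Perlecan (Hspg2), a heparan sulfate proteoglycan of the vessel wall, had 62.19 TPM in replicate 2 and 0.03 TPM in replicate 1, and Furin, a protease that cleaves the lipase, had 22.50 TPM in replicate 2 and 0.18 in replicate 1. Sel1l, needed for the lipase to leave the endoplasmic reticulum, was not called, with 14.16 TPM in replicate 2 and 6.67 in replicate 1. Angptl4, a secreted inhibitor of the lipase, had 3.86 TPM in replicate 2 and 0.04 in replicate 1, from 147 counts in replicate 2 and 4 in replicate 1, and Lpl exceeded it 348.9-fold in replicate 2 and 6430-fold in replicate 1. Of 7 genes in the lipoprotein receptor list (median GC content 55.1%), 5 were called higher by TMM scaling and none lower. The shares of all genes were again 40.5% and 24.0%. With the GC trend removed 2 were called higher and 1 lower, beside 10.2% and 10.7% of all genes. The median of the receptor list was then 0.33 against 3.44 before. Lrp1, a receptor for lipoprotein remnants, had 33.88 TPM in replicate 2 and 0.07 in replicate 1. Sort1, a sorting receptor, had 14.06 TPM in replicate 2 and 2.24 in replicate 1 and was not called. Scarb1, the receptor for high density lipoprotein, had 11.17 TPM in replicate 2 and 0.20 in replicate 1.

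Among 13 other uptake genes, 5 were called higher by TMM scaling, 3 lower and 5 not, beside 40.5% higher and 24.0% lower of all genes. With the GC trend removed none was called higher and 4 were called lower (Cavin1, Tcf15, Vegfb and Nrp1). The shares of all genes were then 10.2% higher and 10.7% lower. Got2, a mitochondrial transaminase also described as a fatty acid binding protein of the membrane, had 315.91 TPM in replicate 2 and 12.61 in replicate 1. Dbi, the acyl-CoA binding protein, had 172.06 TPM in replicate 2 and 19.52 in replicate 1. Cav1, a caveolar protein that supports Cd36 at the membrane, had 97.48 TPM in replicate 2 and 45.21 in replicate 1. Cav1 was called lower in replicate 2 by TMM scaling, but not with the GC trend removed (log2 ratio 0.03). By TMM scaling none of the 4 other Acsl genes was called higher and 2 were called lower, beside 24.0% of all genes. These were Acsl3 (3.58 TPM in replicate 2, 4.25 in replicate 1) and Acsl4 (3.33 TPM in replicate 2, 3.49 in replicate 1). With the GC trend removed neither was called, at log2 ratios of 0.51 for Acsl3 and -0.16 for Acsl4. Acsl5 had 5.87 TPM in replicate 2 and 1.34 in replicate 1 and was not called. The remaining Fabp and Slc27a genes were scarce. Fabp1, the liver form, had 3.83 TPM in replicate 2 and 0.34 in replicate 1, Fabp2, the intestinal form, had 0.33 TPM in replicate 2 and 0.36 in replicate 1, and Fabp6 had no count in either. Slc27a2 had 0.55 TPM in replicate 2 and 0.10 in replicate 1.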

How the data were processed

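Poly(A) RNA of 1 mouse heart was measured in 2 libraries. Per the deposited file descriptions, genes and transcripts follow mm10 with annotation M4; for the aligner, the estimator and strand use, nothing is stated (not given in the sources used here). The deposited tables hold expected counts, TPM and FPKM per gene and transcript, estimated by the authors, and each transcript's share of its gene as a percent. They also hold deposited posterior means and SDs. Identifiers were matched without version to GENCODE M21 of the same assembly, which gave 42462 genes a symbol. GC content is the TPM-weighted mean over M21 transcripts. Nuclear TPM leaves out mitochondrial genes and 11 nuclear copies found by blastn 2.17.0.

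Expected counts were rounded and tested in edgeR 4.0.16 (R 4.3.3) by its exact binomial test (binomTest, a chi-square test at very large totals), two-sided, since the planned exactTest without dispersion could not be fitted under some scalings. Genes needed at least 20 counts over both libraries. With the GC or length trend removed, a doubled-tail exact binomial test was used in its place. Ratios are replicate 2 over replicate 1. A prior of 0.5 counts enters the log2 ratios of single genes, but not their folds or intervals. GC and length trends were removed as medians in 50 bins each. Pair ratios add 0.1 TPM. DESeq2 1.42.0 gave alternative size factors. Sequences were aligned with mafft 7.526, and other steps used Python 3.11.15. Of the 10 genes, 6 had an entry in the RefSeq promoter table.

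The rule for named genes takes the 10, their 2 leading transcripts, near copies with at least 95% identity over 80% of their length, the 3 most abundant genes or those at 0 in each pathway list, and the leading genes of each marker list. Not every gene or transcript it takes is printed (marker lists are given mainly by counts and sums), and a few others were named after their values were seen. The values of 1 gene of a pathway list are not reported here. The 10 genes, lists and pairs were chosen with earlier results of these data known.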

Additional observations from a re-analysis of the deposited data

How the results depend on the processing

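Alternatives covered scaling, count filters, the abundance estimate, pseudocounts, the GC and length trends and each library alone. The count of the 10 genes called higher in replicate 2 stayed within 1.5 times the 5 reported under each alternative run. The genes behind it changed: with the GC trend removed Fabp3 and Slc27a1 were no longer called, and Fabp4 was. The share of all genes called higher was then 10.2%, against 40.5% as reported. The count called lower, reported as 3, was 0 with raw library totals, 0 with the GC trend removed and 0 with GC and length trends removed. Other pathway genes called higher, reported as 15, were 27 with raw totals, 4 with the GC trend removed and 3 with both trends removed. Those called lower, reported as 6, were 0 with raw totals and 10 with no fold threshold. Raw totals moved the median log2 ratio of all genes to 1.89 against 0.37. Log2 ratios that changed sign were Cd36 (0.18 with the GC trend removed, 0.27 with both), Slc27a1 (-0.07 with the GC trend removed and -0.07 with both), Vldlr (0.27 with raw totals, 0.01 with both trends removed), Lpl (0.08) and Acsl1 (1.46) with raw totals, and Fabp4 (-0.18) with upper-quartile scaling. The cause of the trends was not tested. The summed level was 17868.8 on average in nuclear TPM and 3635.3 in TPM. Cd36 over Fabp3 ranged from -2.82 to 1.83 on the log2 scale with 1 library left out. With replicate 1 brought to the GC profile of replicate 2, 5 of 18 pair ratios moved beyond their SD. All 18 pairs then had the same higher gene in both libraries, against 17 as reported. No paired analysis was possible because the 2 libraries come from 1 animal and form 1 group. Depth limits Slc27a4, Gpihbp1 and Slc27a1, which had 2, 7 and 42 counts in replicate 1.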
